A study of Mus musculus with 35 samples.

Results

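The genes described here are 10 members of the NF-kB system of mouse liver: the subunits Nfkb1, Nfkb2, Rel and Relb, the cytoplasmic inhibitors Nfkbia, Nfkbib and Nfkbie, the nuclear cofactors Nfkbiz and Bcl3, and the ubiquitin-editing inhibitor Tnfaip3. They were taken by symbol from the annotation of the array's probe sets, and each was followed through the probe set that names no other gene and has the highest mean signal over all arrays. This gave 9 of the 10 members, of 18194 genes with such a probe set. No probe set was named for Nfkb1, and it is not analysed here. Each of the 9 exceeded a signal of 165, which is the median over the whole table, in 5 or more of the 35 arrays, and so they were among the 12670 genes tested. Nfkb2 and Rel did so on 17 and 16 arrays and on no control array, so they were kept through treated groups alone, and for these genes a difference from control was in part a condition of being tested.

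Livers came from BALB/c mice killed 6 h after an intravenous injection, with 5 mice randomly assigned to each of 7 groups. Mice received silica particles named by size as SP30 (10 mg/kg), SP70 (10, 20 or 40 mg/kg) or SP300 (10 or 200 mg/kg), and control mice received deionized water. RNA from the left lateral lobe of each animal was measured on its own array. The design asks how the liver response depends on the dose of SP70, and how it depends on particle size, both at 10 mg/kg and at the doses that the submitters had found toxic (SP30 at 10, SP70 at 40 and SP300 at 200 mg/kg). The age and sex of the mice are not given in the sources used here, and only 1 time point was sampled. All comparisons against vehicle use the same 5 control mice, and several comparisons between particles share a treated group.

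NF-kB is a family of transcription factors that bind DNA as dimers. In resting cells the dimers are held in the cytoplasm by IkB proteins, and signals from Toll-like, interleukin 1 and tumour necrosis factor receptors trigger destruction of the IkB so that the dimers reach the nucleus. Genes for several inhibitors are themselves targets of NF-kB and form a negative feedback, while Nfkb2 and Relb belong to the slower non-canonical branch. In liver the system works in hepatocytes, in the resident macrophages (Kupffer cells), in endothelium and in any leukocytes present. In RNA from whole tissue, fewer or more cells of a type and less or more RNA per cell cannot be told apart.

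After SP30 at 10 mg/kg and SP70 at 10 and 40 mg/kg all 9 members were higher than in controls, and after SP70 at 20 mg/kg all but Rel were. After SP300, 8 of the 9 were higher at 200 mg/kg, again all but Rel, and at 10 mg/kg no member passed the test (0 of 9 in limma, with 2 at an unadjusted p under 0.05). Of all tested genes, 18.1% were higher after SP30, 12.5%, 18.8% and 15.6% at the rising SP70 doses and 12.6% at 200 mg/kg of SP300. The Rel call at 10 mg/kg of SP70 was lost without any 1 of 8 of the 10 mice. The Nfkb2 and Relb calls at 200 mg/kg of SP300 were also lost without some single mice. After SP30 the log2 differences ran from 1.38 for Nfkbia to 5.13 for Tnfaip3, both inhibitors that NF-kB itself induces. Between the SP70 doses the members did not move together: Relb, Bcl3 and Nfkbia were lower at 20 than at 10 mg/kg and higher again at 40, Nfkb2 and Nfkbie were highest at 10, and Tnfaip3 and Nfkbiz were highest at 40.

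**Figure D1:**
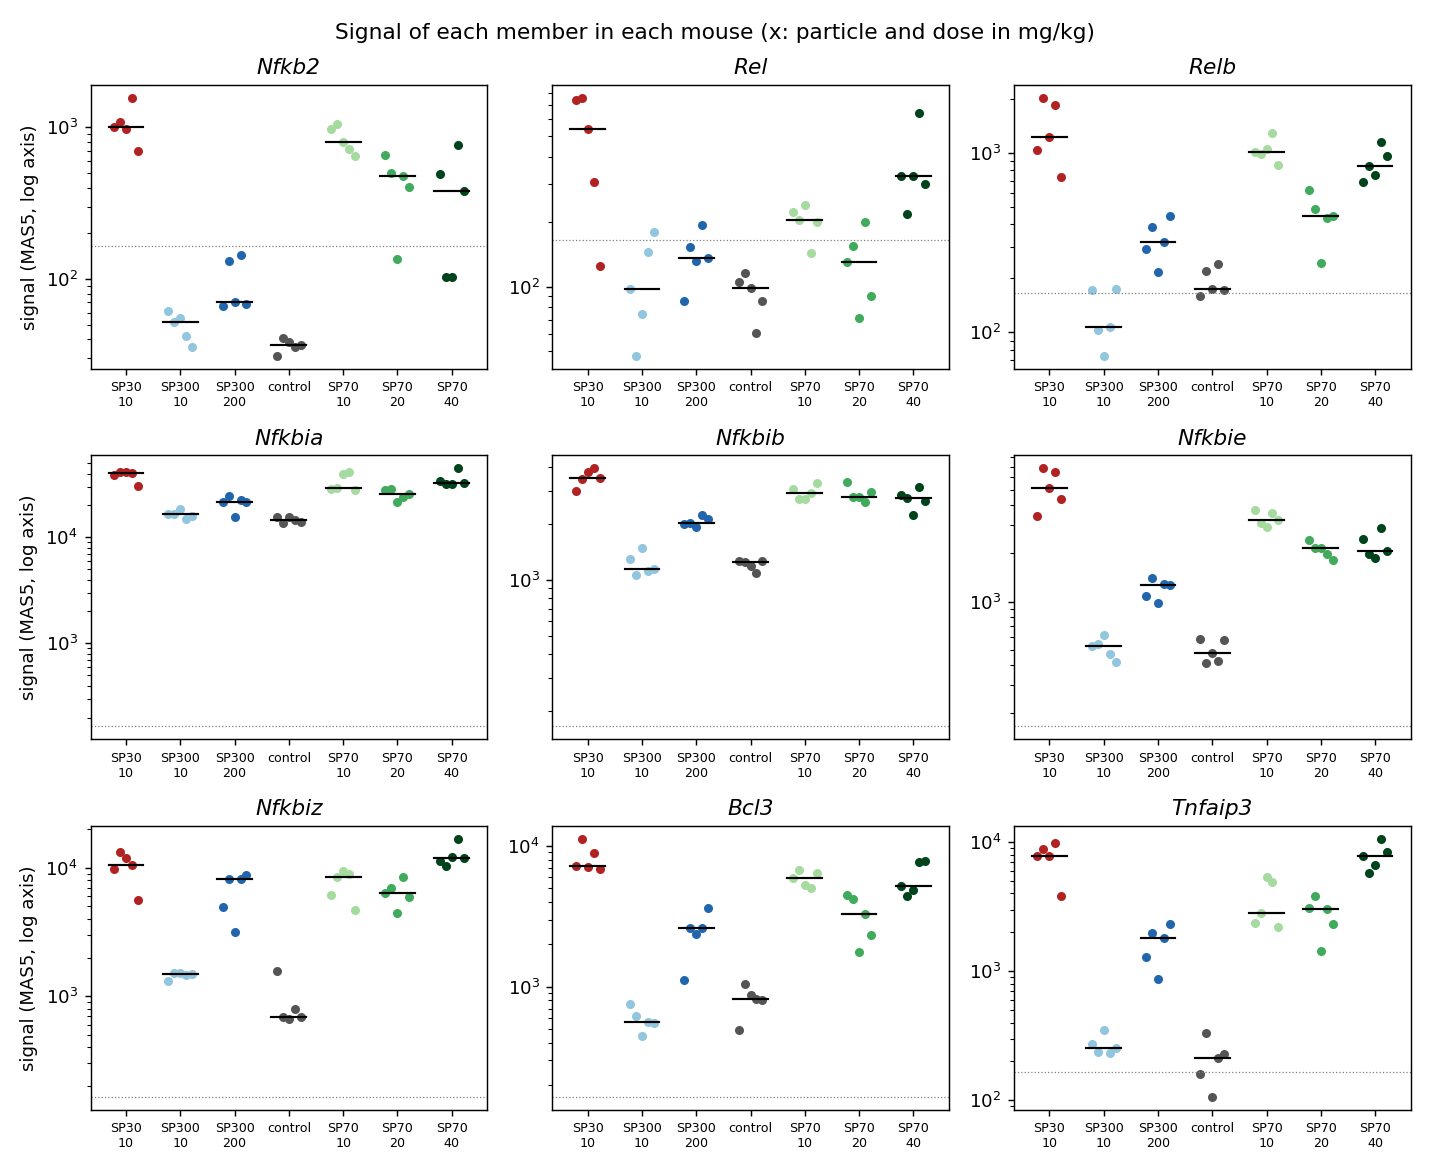
Signal of the 9 members in each of the 35 mice (linear signal on a log axis), by group, with points for mice and bars for group medians; the dotted line marks the signal of 165 used as a filter. For Nfkbie all 5 SP30 mice (3438 to 6832) lie above all 5 control mice (411 to 579), while the SP300 10 mg/kg mice (416 to 613) overlap them.

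The arrays were of like brightness, with medians of 149 to 180 and trimmed means of 887 to 1139. Correlations over all probe sets were 0.941 to 0.956 between arrays of 1 group and 0.918 to 0.952 between groups. Single mice did stand apart in some marker sums. For sinusoidal endothelium SP70 40 mg/kg mouse 3 had 4171, against 9153 to 11047 in the rest of its group. SP300 200 mg/kg mouse 1 had 7390, against 14855 to 17399. The tissue label fitted the markers, since the summed signal of 7 hepatocyte markers was 469090 to 659590 over all mice. Markers of other liver cells moved with treatment. Of 8 Kupffer cell markers, 6 were lower than control after SP30, 6, 7 and 7 at 10, 20 and 40 mg/kg of SP70, 7 at 200 mg/kg of SP300, and at 10 mg/kg of SP300 0 in limma (0 at an unadjusted p under 0.05). The sum of the 8 per mouse was 6149 to 13328 after SP30, 21974 to 31467 and 1760 to 2054 at 10 and 200 mg/kg of SP300, and 19826 to 29114 in controls. It was 8245 to 12849, 2648 to 4068 and 1719 to 2589 at 10, 20 and 40 mg/kg of SP70. Clec4f, a lectin of Kupffer cells, was 45.6 ± 47.0 at 200 mg/kg of SP300 against 3784 ± 421 in controls (mean ± SD, n = 5 each), and 6 of the 8 markers then averaged below 165.

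**Figure D2:**
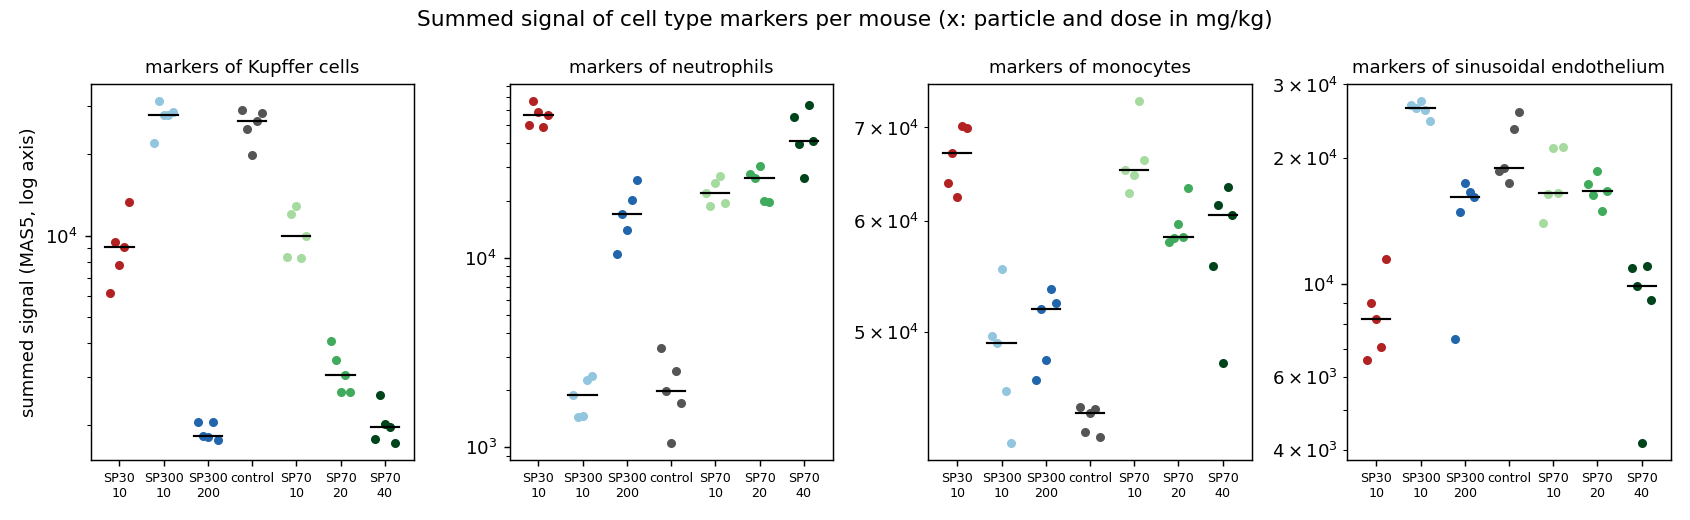
Summed signal of the markers of Kupffer cells (8), neutrophils (8), monocytes (7) and sinusoidal endothelium (8) in each mouse, on a log axis, by group. Kupffer cell sums at 200 mg/kg of SP300 (1760 to 2054) lie far below the control sums (19826 to 29114), and neutrophil sums after SP30 (49119 to 67211) lie above the control sums (1057 to 3349).

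Neutrophil markers moved the other way. Of the 8 tested, 7 were higher than control after SP30, 5, 6 and 6 at the rising doses of SP70, and 4 at 200 mg/kg of SP300. Their sum was 49119 to 67211 after SP30, 1437 to 2369 and 10429 to 25778 at the 2 doses of SP300, and 1057 to 3349 in controls, while the SP70 groups held 18750 to 26866, 19624 to 30335 and 26389 to 64079 in dose order. Monocyte markers were higher for 7 of 7 after SP30 (sum 62438 to 70121, against 42060 to 44183 in controls), for 7, 7 and 6 at 10, 20 and 40 mg/kg of SP70 (62851 to 73149, 57972 to 63325 and 47512 to 63482), and for 5 at 200 mg/kg of SP300 (46210 to 53630). Of 8 markers of sinusoidal endothelium, 6 were lower after SP30 (sum 6568 to 11486, against 17443 to 25814 in controls), 2, 3 and 6 at the rising SP70 doses (13969 to 21224, 14977 to 18580 and 4171 to 11047) and 4 at 200 mg/kg of SP300 (7390 to 17399). In each of these groups 1 of the 8 was higher. Of all tested genes, 31.3% were lower after SP30, 5.7%, 20.9% and 28.8% at the SP70 doses and 18.1% at 200 mg/kg of SP300. In the same order 18.1%, 12.5%, 18.8%, 15.6% and 12.6% were higher. The count of 1 of 8 endothelial markers higher was near those shares, and lists of 2 or 3 tested markers are too short to be set against them. Of 6 stellate cell markers, 4 were lower after SP30 (sum 18468 to 28677, against 29823 to 40899 in controls), 2, 3 and 4 at the rising SP70 doses (27846 to 34120, 24055 to 32992 and 16887 to 30013) and 3 at 200 mg/kg of SP300 (22756 to 31675). Of 3 tested cholangiocyte markers, 1 was higher after SP30, at each SP70 dose and at 200 mg/kg of SP300, and the sum of the 4 with a probe set was 1230.5 to 1877 after SP30 against 390 to 779 in controls. Of 3 tested NK cell markers, 2, 1 and 1 were higher at the rising SP70 doses, with a sum over 5 of 809 to 1357 at 10 mg/kg against 469 to 673 in controls. Most T cell and B cell markers averaged below 165 in every group (sums of 296 to 758 and 297 to 722 over all mice). Of 2 tested T cell markers, 1 was higher after SP30 and at each SP70 dose. The part of these cells in the changes of the NF-kB genes was not tested.

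Promoter windows of 4 members are shown: Nfkb2, with the most NF-kB motif matches of the members, Nfkbia and Tnfaip3, the ends of the range of response to SP30, and Nfkbib, with no match. Each runs from 250 bases before to 50 after the annotated start in RefSeq on GRCm38.p6, and capitals mark matches to the NF-kB (kB) consensus of 10 bases on either strand. The windows are chr19:46304487-46304786 for Nfkb2 (plus strand), chr12:55492598-55492897 for Nfkbia (minus strand), chr10:19015361-19015660 for Tnfaip3 (minus strand) and chr7:28766595-28766894 for Nfkbib (minus strand).
Nfkb2: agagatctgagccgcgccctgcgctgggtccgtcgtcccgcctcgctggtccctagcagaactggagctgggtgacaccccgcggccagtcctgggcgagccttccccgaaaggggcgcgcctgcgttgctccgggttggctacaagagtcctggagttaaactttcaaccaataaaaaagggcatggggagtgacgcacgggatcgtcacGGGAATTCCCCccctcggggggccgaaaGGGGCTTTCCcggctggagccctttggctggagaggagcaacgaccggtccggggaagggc
Nfkbia: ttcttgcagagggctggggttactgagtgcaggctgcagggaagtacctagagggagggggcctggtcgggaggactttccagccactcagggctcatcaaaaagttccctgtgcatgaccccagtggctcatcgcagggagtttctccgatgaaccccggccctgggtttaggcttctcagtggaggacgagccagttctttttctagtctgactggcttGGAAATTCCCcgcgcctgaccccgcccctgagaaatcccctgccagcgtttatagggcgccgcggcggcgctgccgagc
Tnfaip3: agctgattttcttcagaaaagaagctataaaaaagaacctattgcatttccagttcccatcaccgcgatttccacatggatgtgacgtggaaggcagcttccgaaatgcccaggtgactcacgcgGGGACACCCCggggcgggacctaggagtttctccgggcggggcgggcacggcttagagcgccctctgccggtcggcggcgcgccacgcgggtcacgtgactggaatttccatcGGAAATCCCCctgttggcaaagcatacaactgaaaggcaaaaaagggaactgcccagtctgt
Nfkbib: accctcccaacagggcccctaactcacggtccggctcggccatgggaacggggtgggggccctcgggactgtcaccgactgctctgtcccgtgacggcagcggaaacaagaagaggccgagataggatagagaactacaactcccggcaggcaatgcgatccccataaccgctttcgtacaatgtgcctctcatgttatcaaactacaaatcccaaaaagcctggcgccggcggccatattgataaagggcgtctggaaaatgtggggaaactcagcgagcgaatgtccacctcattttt

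The table of windows matched 7 of the members, with 10 windows, since Nfkb2 has 3 starts and Tnfaip3 has 2. The kB consensus was present in 8 of these 10 windows and in 6 of the 7 genes, against 8.5% of all 32851 mouse windows of that length, and at least 2 matches were present in 1.22% of all windows. The Nfkb2 windows chr19:46305445-46305744 and chr19:46305680-46305979 overlap and share a match, GGGACTTTCC. It is the only match in the later window, so the count of windows holds it in both. Nfkb2's window shown holds 3 matches, of which 2 overlap, Tnfaip3's holds 2 and Nfkbia's 1. Rel carries GGGAAATCCC and, shifted by a base, GGAAATCCCC, while Nfkbie carries GGGGGATTCC and Bcl3 carries GGGAAGTCCC. These are letter matches in windows rich in G and C (47 to 75% over the 10 windows), not measured binding, and the shares were not matched for base composition.

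Among the subunits, Nfkb2, which encodes p100, the precursor of p52, was below the filter in every control liver and above it in every liver exposed to SP30 or to SP70 at 10 mg/kg. Signals of the 5 mice, given in the order of their replicate numbers here and below, were 1006, 1078, 970.3, 1559.8 and 691 after SP30, 61.2, 51.7, 55.0, 41.9 and 35.7 at 10 mg/kg of SP300, 66.3, 132, 70.9, 144 and 68.3 at 200 mg/kg of SP300 and 31.1, 40.9, 38.5, 35.9 and 36.7 in controls. With SP70 they were 976, 1041, 797, 719 and 646 at 10 mg/kg, 651, 495, 135, 475 and 405 at 20 mg/kg and 490.0, 104, 103, 762 and 378 at 40 mg/kg. All SP30 and SP70 mice exceeded every control, and at 20 and 40 mg/kg of SP70 the mice spread widely, with 1 and 2 of the 5 under the filter. On the scale of log2(signal + 12.5), Nfkb2 was above control by 4.41 ± 0.38 after SP30 and by 4.09 ± 0.38, 3.03 ± 0.38 and 2.56 ± 0.38 at the rising SP70 doses (± SE; limma, adjusted p = 1.03e-11, 2.16e-10, 7.19e-08 and 1.02e-06). With control signals alone set to the floor of 165, these are rises of at least 6.22-, 4.99-, 2.33- and 1.65-fold. At 200 mg/kg of SP300 the difference was 1.08 ± 0.38 (adjusted p = 0.0288) with both groups under the floor. That call was lost without control mouse 1 or without SP300 mouse 2 or 4 (adjusted p 0.0532 to 0.0827), with a larger added value (0.0872) and with only the compared groups fitted (0.0816). Nfkb2's other probe set gave a smaller and flatter change, above control by 1.86, 1.51 and 1.54 at the 3 SP70 doses and by 1.92 after SP30, so the decline with SP70 dose rests on the brighter probe set.

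Relb, the subunit that pairs with p52, was detected in most mice and followed SP70 dose in a V shape. Its signals were 1036, 2022, 1220.3, 1839.7 and 736 after SP30, 171, 104, 74.0, 107 and 175 at 10 mg/kg of SP300 and 289.6, 386, 218, 317 and 445 at 200 mg/kg of SP300, against 160.1, 219, 173, 239 and 172 in controls. In the SP70 groups they were 1008, 989, 1047, 1284 and 855 at 10 mg/kg, 619, 486, 244, 434 and 447 at 20 mg/kg and 692, 842, 752, 1149.7 and 963 at 40 mg/kg. Every SP30 and SP70 mouse was above every control, and the 5 mice at 20 mg/kg of SP70 were all below those at 10 and at 40 mg/kg. Relb differed from control by 2.67 ± 0.24 (log2) after SP30, at least 6.69-fold, by 2.36 ± 0.24, 1.12 ± 0.24 and 2.11 ± 0.24 at the SP70 doses (at least 5.36-, 2.23- and 4.52-fold), and by 0.72 ± 0.24 at 200 mg/kg of SP300 (adjusted p = 0.0216). The last call was lost without control mouse 1 or SP300 mouse 2 or 5 (adjusted p 0.0513 to 0.0723). Relb at 10 mg/kg of SP300 stood at -0.61 (95% interval -1.10 to -0.12, adjusted p = 0.232), which did not pass the test.

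Rel, which encodes c-Rel, a subunit best known from lymphoid and myeloid cells, had signals under or near the filter in most groups. Its signals were 739, 757, 544, 306 and 125 after SP30, 97.5, 47.6, 74.8, 146 and 180.0 at 10 mg/kg of SP300 and 85.4, 153, 132, 193 and 136 at 200 mg/kg of SP300, against 105, 115, 98.2, 61.0 and 85.3 in controls. SP70 gave 223, 205, 239.8, 144 and 199 at 10 mg/kg, 129.6, 155, 71.4, 199 and 90.8 at 20 mg/kg and 328, 219, 326, 642 and 300.2 at 40 mg/kg. The SP30 mice all exceeded the controls but spread widely, and at 20 mg/kg of SP70 the mice overlapped the controls. Rel was above control by 2.04 ± 0.36 after SP30 and by 1.77 ± 0.36 at 40 mg/kg of SP70 (adjusted p = 1.48e-05 and 0.000128), at least 2.49- and 2.06-fold. Rel at 10 mg/kg of SP70 differed by 1.03 ± 0.36 (adjusted p = 0.0421), a call lost without any 1 of 8 of the 10 mice (all but control mouse 2 and SP70 mouse 4; adjusted p 0.0526 to 0.109), and also without the filter on low values (0.0624). At 20 mg/kg of SP70 and at 200 mg/kg of SP300 the differences of 0.37 and 0.52 did not pass (adjusted p = 0.447 and 0.304).

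Of the cytoplasmic inhibitors, Nfkbia (IkB alpha), the main feedback inhibitor of the canonical branch, was far above the filter in every liver. Its signals were 38519, 41067, 41188, 40210 and 30739 after SP30, 16711, 16504, 18619, 14895 and 15878 at 10 mg/kg of SP300 and 21733, 24298, 15630, 22601 and 21487 at 200 mg/kg of SP300, against 15513, 13618, 15705, 14711 and 13929 in controls. The SP70 mice had 28740, 29431, 39662, 41283 and 28208 at 10 mg/kg, 28157, 28708, 21461, 24047 and 25729 at 20 mg/kg and 33986, 31959, 31987, 44763 and 32540 at 40 mg/kg. All SP30 and SP70 mice were above all controls, whereas 1 of the 5 SP300 mice at 200 mg/kg lay within the control range. In fold terms Nfkbia was 2.60 times control after SP30, 2.25, 1.74 and 2.37 times control at the SP70 doses, and 1.43 times control at 200 mg/kg of SP300 (log2 1.38 ± 0.11, 1.17 ± 0.11, 0.80 ± 0.11, 1.24 ± 0.11 and 0.51 ± 0.11; adjusted p from 4.76e-12 to 0.000752). Its 5 probe sets placed the change at 10 mg/kg of SP70 between 1.10 and 1.48 on the log2 scale.

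Nfkbib (IkB beta), which holds dimers of Rela and Rel, had the tightest spread, with a residual SD of 0.14 on the log2 scale against a median of 0.24 over all genes and 0.64 for Nfkb2. The signals were 2986, 3472, 3751, 3947 and 3514 after SP30, 1292, 1067, 1478, 1119 and 1143 at 10 mg/kg of SP300 and 1983, 2003, 1927, 2232 and 2119.8 at 200 mg/kg of SP300, against 1260.1, 1254, 1189, 1084 and 1254 in controls. After SP70 they were 3056, 2717, 2699.7, 2915 and 3299.5 at 10 mg/kg, 3351, 2790.4, 2765, 2623 and 2967 at 20 mg/kg and 2835, 2740.2, 2235, 3119 and 2656 at 40 mg/kg. The SP30 and SP70 mice were all above the SP300 200 mg/kg mice, by little in 1 mouse at 40 mg/kg of SP70, and these were all above the SP300 10 mg/kg and control mice, which overlapped. It was 2.92 times control after SP30, 2.43, 2.39 and 2.24 times control at the SP70 doses and 1.70 times control at 200 mg/kg of SP300 (log2 1.53 ± 0.09, 1.27 ± 0.09, 1.25 ± 0.09, 1.15 ± 0.09 and 0.76 ± 0.09). Its other probe set was above the filter on 11 of the 35 arrays and gave 1.34, 1.23, 1.49, 1.27 and 1.16 in the same order. SP300 at 10 mg/kg gave a difference of 0.01, with a 95% interval of -0.18 to 0.19.

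Nfkbie (IkB epsilon), an inhibitor induced late in the feedback, had larger log2 differences from control than the other cytoplasmic inhibitors in the 5 groups where it was higher. Its signals were 3438, 6832, 5114, 6463 and 4377 after SP30, 527, 540.5, 613, 468 and 416 at 10 mg/kg of SP300 and 1090.4, 1395, 981, 1290 and 1277 at 200 mg/kg of SP300, against 579, 411, 478, 423 and 572 in controls. For SP70 they were 3763, 3127, 2937, 3567 and 3229.5 at 10 mg/kg, 2429, 2163, 2160.2, 1989.6 and 1821 at 20 mg/kg and 2458, 1980, 1867, 2909 and 2064 at 40 mg/kg. Every mouse at 10 mg/kg of SP70 was above every mouse at 20 and at 40 mg/kg, and the SP300 200 mg/kg mice lay between the SP70 and the control mice with no overlap. Nfkbie rose 10.4-fold after SP30, 6.79-, 4.31- and 4.56-fold at the SP70 doses and 2.46-fold at 200 mg/kg of SP300 (log2 3.35 ± 0.15, 2.73 ± 0.15, 2.08 ± 0.15, 2.16 ± 0.15 and 1.27 ± 0.15; adjusted p from 2.19e-19 to 2.6e-08). A dimmer probe set of the gene gave 2.37, 1.90, 1.38, 1.26 and 0.83 in the same order.

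Nfkbiz (IkB zeta) is a nuclear cofactor that NF-kB dimers need for a set of secondary inflammatory genes. Its signals were 9752, 13243, 11923, 10480 and 5644 after SP30, 1326, 1508, 1525, 1461 and 1485 at 10 mg/kg of SP300 and 4976, 8137, 3164, 8207 and 8829 at 200 mg/kg of SP300, against 1563, 685, 664, 793 and 689 in controls. The SP70 mice had 6122, 8506, 9494, 8918 and 4685 at 10 mg/kg, 6306, 6969, 4446, 8468 and 5974 at 20 mg/kg and 11186, 10299, 12178, 16787 and 11935 at 40 mg/kg. The SP300 200 mg/kg mice overlapped those at 10 and 20 mg/kg of SP70, and all of them were above all controls. The rise over control was 11.9-fold after SP30, 8.81-, 7.61- and 14.9-fold at the SP70 doses and 7.51-fold at 200 mg/kg of SP300 (log2 3.55 ± 0.25, 3.12 ± 0.25, 2.91 ± 0.25, 3.87 ± 0.25 and 2.89 ± 0.25). One of its dimmer probe sets gave 2.81, 2.29, 2.66, 3.17 and 1.58 in the same order, and the other gave 1.79, 1.35, 1.49, 2.02 and 1.23. For SP300 at 10 mg/kg it was 0.81 (95% interval 0.31 to 1.31, adjusted p = 0.102), and without control mouse 1, whose signal of 1563 was over that of the other controls (664 to 793), it was 1.03 with adjusted p = 0.022.

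Bcl3 is a nuclear cofactor that binds homodimers of p50 and p52. Signals were 7213, 11247, 7068, 8872 and 6871 after SP30, 751, 618, 444, 564 and 551 at 10 mg/kg of SP300 and 1119.7, 2633, 2353, 2618 and 3619.8 at 200 mg/kg of SP300, against 491, 1051, 868, 824 and 801 in controls. SP70 mice had 5959, 6769.5, 5264, 5034 and 6476 at 10 mg/kg, 4501, 4185, 1753, 3301 and 2317 at 20 mg/kg and 5179, 4432, 4839.9, 7758 and 7858 at 40 mg/kg. All SP30, SP70 and SP300 200 mg/kg mice were above all controls, and the SP30 mice were also all above the SP70 10 mg/kg mice. Bcl3 was 10.3 times control after SP30, 7.48, 3.86 and 7.45 times control in the SP70 series and 2.95 times control at 200 mg/kg of SP300 (log2 3.35 ± 0.24, 2.88 ± 0.24, 1.93 ± 0.24, 2.88 ± 0.24 and 1.54 ± 0.24). After 10 mg/kg of SP300 it stood at -0.43 (95% interval -0.93 to 0.06).

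Tnfaip3 removes and attaches ubiquitin on signalling adaptors and so shuts the pathway off upstream of the IkB proteins. Its signals were 7772, 8834, 7867, 9810.5 and 3796 after SP30, 274, 239, 350.1, 234 and 254 at 10 mg/kg of SP300 and 1278, 1985, 869, 1813 and 2326 at 200 mg/kg of SP300, against 160.2, 332, 106, 212 and 229 in controls. Mice given SP70 had 2366, 2820.2, 5323, 4869.5 and 2182 at 10 mg/kg, 3085, 3855, 1439, 3038 and 2341 at 20 mg/kg and 7798, 5811, 6649, 10594 and 8423 at 40 mg/kg. The SP70 40 mg/kg mice were all above those at 10 and 20 mg/kg, which overlapped, and no SP30, SP70 or SP300 200 mg/kg mouse fell to the control range. Against controls set to the floor where lower, Tnfaip3 rose at least 34.0-fold after SP30, at least 15.4-, 12.3- and 36.1-fold at the SP70 doses and at least 7.33-fold at 200 mg/kg of SP300 (log2 5.13 ± 0.29, 3.99 ± 0.29, 3.66 ± 0.29, 5.21 ± 0.29 and 2.92 ± 0.29). Of the 12670 genes ordered by log2 difference from the top, Tnfaip3 was at place 21 after SP30, 27, 30 and 8 at the SP70 doses and 32 at 200 mg/kg of SP300. Its dimmer probe set did not show all of this: it gave 1.49 at 10 mg/kg of SP70 (adjusted p = 0.064) and 0.00 at 200 mg/kg of SP300 (0.996), beside 2.74 after SP30 and 2.19 and 3.13 at 20 and 40 mg/kg of SP70.

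**Figure D3:**
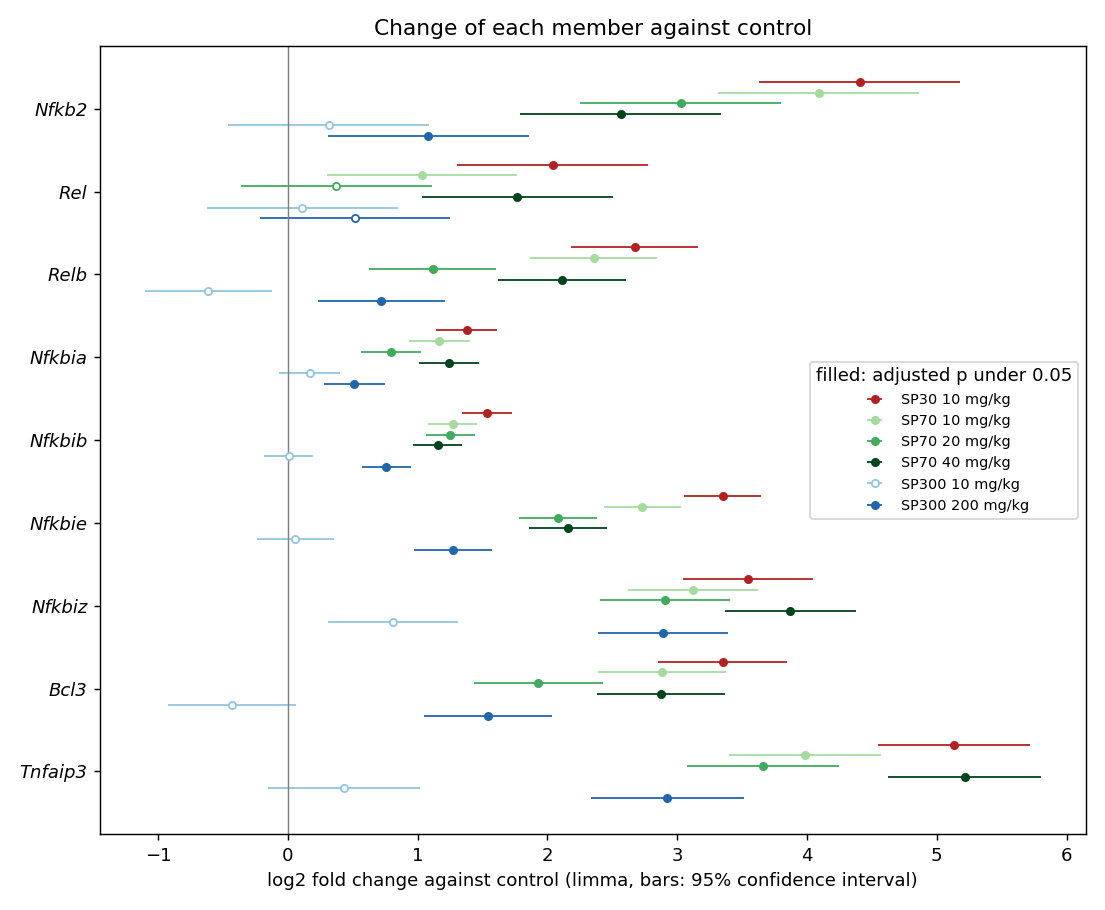
Log2 difference of each member from control in the 6 particle groups, with 95% intervals from limma (5 mice a group); filled points passed an adjusted p of 0.05. After SP30 the values run from 1.38 for Nfkbia to 5.13 for Tnfaip3, and at 10 mg/kg of SP300 no point is filled.

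Set against the whole array, the members were called upward more often than genes at large in every comparison with control except that of SP300 at 10 mg/kg. After SP30, 9 of 9 passed the test upward, where 18.1% of all tested genes did, and in all 9 the 5 treated mice were above the 5 controls, as for 12.2% of genes. These counts include Nfkb2 and Rel, which could be tested only because some treated group was high, and so do the counts between particle groups below. The members were also chosen with earlier results of these data known. The shares of all genes are therefore given as a background, not as a test of the members. At 10 mg/kg of SP70 it was again 9 of 9 (12.5% of genes) and 9 without overlap (8.9%), at 20 mg/kg 8 and 8 (18.8% and 14.2%), and at 40 mg/kg 9 and 9 (15.6% and 9.47%). At 200 mg/kg of SP300, 8 passed (12.6% of genes) and 6 did not overlap control (8.05%). At 10 mg/kg of SP300, 0 of 9 passed in limma (1.17% of genes passed in either direction), although 2 had an unadjusted p under 0.05, Relb on the low side and Nfkbiz on the high side. Median log2 differences of the 9 members were 3.35 after SP30, 2.73, 1.93 and 2.16 along the SP70 doses, and 0.11 and 1.08 at 10 and 200 mg/kg of SP300, where the medians over all tested genes were -0.12, 0.01, -0.03, -0.09, 0.06 and -0.06.

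Between 10 and 20 mg/kg of SP70, 5 of the 9 members were lower at the higher dose (12% of genes were) and none was higher. Relb changed by -1.24 ± 0.24 and Bcl3 by -0.95 ± 0.24 (log2; adjusted p = 0.000486 and 0.00593), Nfkbie by -0.65 ± 0.15 (0.00215), Nfkbia by -0.37 ± 0.11 (0.0219) and Nfkb2 by -1.07 ± 0.38 (0.0494). In Relb, Nfkbie and Bcl3 the mice of the 2 doses did not overlap (8.92% of genes were so on the low side), whereas Rel, Nfkbiz, Tnfaip3 and Nfkbib differed by -0.66, -0.21, -0.33 and -0.02 and did not pass. The Nfkb2 call was lost without any 1 of 9 of the 10 mice, all but SP70 20 mg/kg mouse 1 (adjusted p 0.0501 to 0.197). The Nfkbia call was lost without mouse 3 or 4 of either dose (0.0553 to 0.0899), each of which left 3 members lower. The count was also 3 after quantile normalization. It was 2 with each gene's second brightest probe set, with which Nfkb2, Nfkbia and Nfkbie did not pass (-0.35, -0.35 and -0.52; adjusted p = 0.547, 0.108 and 0.0506).

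From 20 to 40 mg/kg the picture turned: 6 members were higher at 40 mg/kg (2.79% of genes) and none lower, with 5 free of overlap (2.53%). Tnfaip3 differed by 1.55 ± 0.29 (adjusted p = 0.000443), Rel by 1.39 ± 0.36, Relb by 1.00 ± 0.24, Nfkbiz by 0.96 ± 0.25, Bcl3 by 0.95 ± 0.24 and Nfkbia by 0.45 ± 0.11 (adjusted p from 0.00579 to 0.01). SP70 20 mg/kg mouse 3 was the lowest of its group for Nfkb2, Rel, Relb, Nfkbia, Nfkbiz, Bcl3 and Tnfaip3. SP70 40 mg/kg mouse 4 was the highest of its group for every member but Bcl3, so the members did not vary independently between mice. Without 1 mouse, 5 to 6 members were higher. Without SP70 20 mg/kg mouse 3, whose Bcl3 signal was 1753, the Bcl3 difference was 0.75 (adjusted p = 0.0501). With the second brightest probe sets 4 members passed, and Tnfaip3 and Nfkbiz did not (0.94 and 0.51; adjusted p = 0.299 and 0.219). Nfkb2, Nfkbib and Nfkbie differed by -0.46, -0.10 and 0.08 and did not pass.

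Over the whole SP70 range, 40 against 10 mg/kg, 2 members were higher (5.22% of genes) and 2 lower (25.3%). Tnfaip3 and Nfkbiz were higher by 1.23 ± 0.29 and 0.75 ± 0.25 (adjusted p = 0.00128 and 0.0191), and neither overlapped between the doses (2.68% of genes). Nfkb2 and Nfkbie were lower, at -1.53 ± 0.38 and -0.57 ± 0.15 (adjusted p = 0.00223 and 0.00314), with Nfkbie free of overlap (14.9% of genes on the low side). Both counts on the low side were near the shares of all genes, so they do not set the members apart. The Nfkbiz call was lost without SP70 10 mg/kg mouse 5 or 40 mg/kg mouse 4 (0.59 and 0.64; adjusted p = 0.0785 and 0.0611), and the Nfkb2 call was absent from its second probe set (-0.33, adjusted p = 0.534). The rest did not pass: Rel differed by 0.73 (95% interval -0.00 to 1.47, adjusted p = 0.126, or 0.0456 with only the compared groups fitted), and Relb, Nfkbia, Nfkbib and Bcl3 differed by -0.24 (95% interval -0.73 to 0.24), 0.07 (-0.16 to 0.31), -0.12 (-0.31 to 0.07) and -0.01 (-0.50 to 0.49). Over the same doses the Kupffer cell sums fell in steps without overlap (8245 to 12849, 2648 to 4068, 1719 to 2589) and the neutrophil sums overlapped at 10 and 20 mg/kg and reached their highest values at 40. The part of this in the members' dose pattern was not tested.

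**Figure D4:**
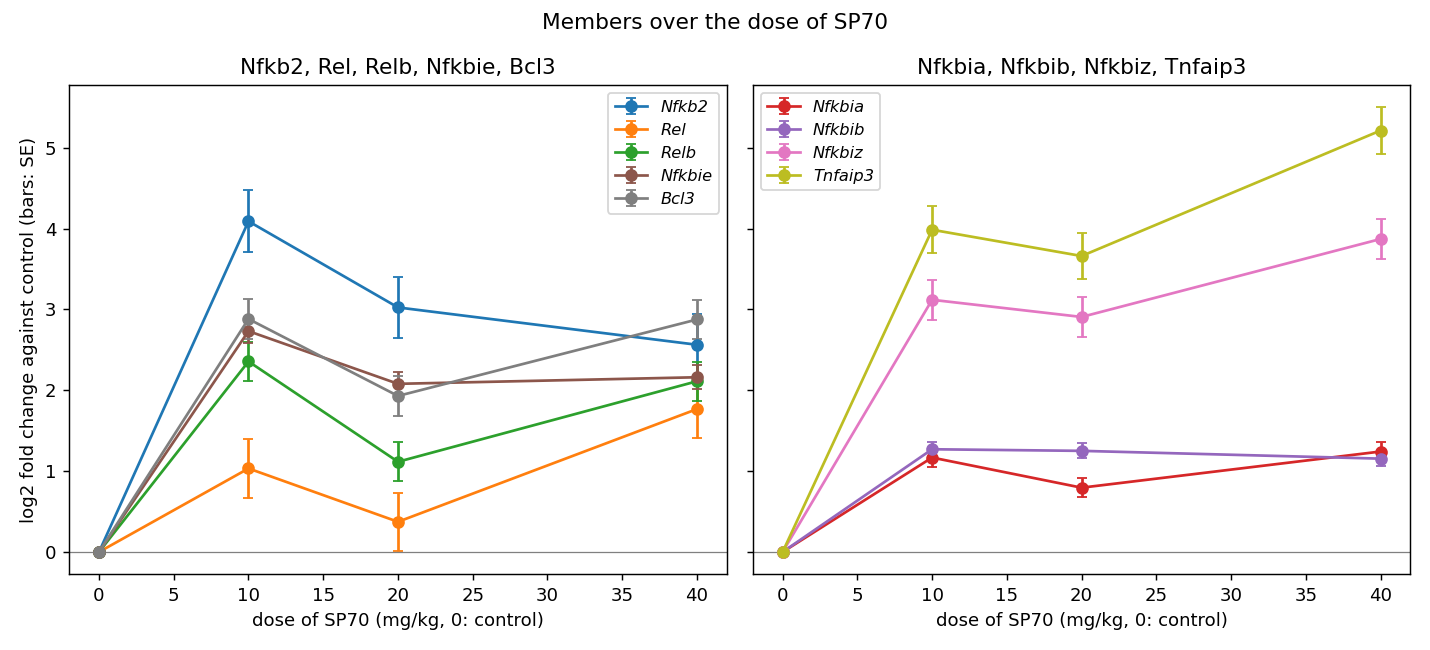
Log2 difference from control (± SE, n = 5) against SP70 dose (0, 10, 20 and 40 mg/kg). A panel holds Nfkb2, Rel, Relb, Nfkbie and Bcl3, and the other holds Nfkbia, Nfkbib, Nfkbiz and Tnfaip3. Relb runs through 2.36, 1.12 and 2.11, and Tnfaip3 through 3.99, 3.66 and 5.21.

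After SP300 at 200 against 10 mg/kg, 7 members were higher (9.41% of genes), and 7 of the 9 were without overlap (5.77%). These were not the same 7: Nfkbia was higher with overlap, and Nfkb2 was without overlap but did not pass. The differences were 2.49 ± 0.29 for Tnfaip3, 2.08 ± 0.25 for Nfkbiz, 1.98 ± 0.24 for Bcl3, 1.33 ± 0.24 for Relb, 1.22 ± 0.15 for Nfkbie, 0.75 ± 0.09 for Nfkbib and 0.34 ± 0.11 for Nfkbia. The Nfkbia call (adjusted p = 0.0199) was lost without SP300 10 mg/kg mouse 4 or 200 mg/kg mouse 2 or 4 (0.05 to 0.0707). With the second brightest probe sets 5 members passed, and Tnfaip3 and Nfkbib did not (0.20 and 0.93; adjusted p = 0.84 and 0.113). Nfkb2 and Rel, at 0.77 and 0.41, did not pass (adjusted p = 0.125 and 0.433). The 200 mg/kg mice had 1760 to 2054 in summed Kupffer cell markers against 21974 to 31467 at 10 mg/kg, and 10429 to 25778 in neutrophil markers against 1437 to 2369.

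SP30 and SP70 were each set against SP300 at the matched dose of 10 mg/kg. After SP30 against SP300 all 9 members were higher (16.3% of genes), 8 without overlap (11.2%), from 1.21 ± 0.11 for Nfkbia to 4.70 ± 0.29 for Tnfaip3. After SP70 against SP300, 8 were higher (10.5% of genes), all 8 without overlap (7.66%), from 1.00 ± 0.11 for Nfkbia to 3.56 ± 0.29 for Tnfaip3 in the 7 other than Nfkb2. On its brighter probe set Nfkb2 was under the filter in all 5 SP300 mice. There it was at least 6.22-fold higher after SP30 and at least 4.99-fold higher after SP70. Its other probe set, above the filter on 31 arrays, changed less. Against control it gave 1.92 after SP30, 1.86 after SP70 and 0.67 after SP300 (log2). With the second brightest probe sets Nfkbib did not pass for SP70 (0.99, adjusted p = 0.113). Rel differed by 0.92 ± 0.36 there (adjusted p = 0.0672), and passed only without SP300 mouse 5 (1.12, adjusted p = 0.0337). The Kupffer cell sums at this dose were 6149 to 13328 after SP30, 8245 to 12849 after SP70 and 21974 to 31467 after SP300.

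SP30 against SP70 at 10 mg/kg gave 4 higher members (5.41% of genes) and 1 of the 9 without overlap (3.09%). Tnfaip3 differed by 1.14 ± 0.29 (adjusted p = 0.00266) and Nfkbie by 0.62 ± 0.15 (0.00163). Rel differed by 1.01 ± 0.36 (0.0338), lost without any of SP30 mice 1, 2 and 3 and SP70 mice 2, 4 and 5 (adjusted p 0.0516 to 0.123), and Nfkbib by 0.26 ± 0.09 (0.0311), lost without SP30 mouse 3 or 4 or SP70 mouse 2 or 3 (0.0709 to 0.0898). Leaving out SP30 mouse 3 or SP70 mouse 2 left 2 members higher. The second brightest probe sets left 1, since Nfkbib, Nfkbie and Tnfaip3 did not pass with them (0.12, 0.48 and 1.25; adjusted p = 0.883, 0.0514 and 0.0977). Rel and Nfkbib also did not pass with only the compared groups fitted (0.0738 and 0.0658), nor did Rel without the filter (0.0501) or the mean of the Nfkbib probe sets (0.19, 0.584). The other 5 did not pass, with 95% intervals of -0.46 to 1.09 for Nfkb2, -0.17 to 0.81 for Relb, -0.02 to 0.44 for Nfkbia, -0.07 to 0.93 for Nfkbiz and -0.03 to 0.96 for Bcl3. Bcl3 was the member without overlap, at 0.47 ± 0.24 (adjusted p = 0.154, or 0.0221 with only the compared groups fitted).

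**Figure D5:**
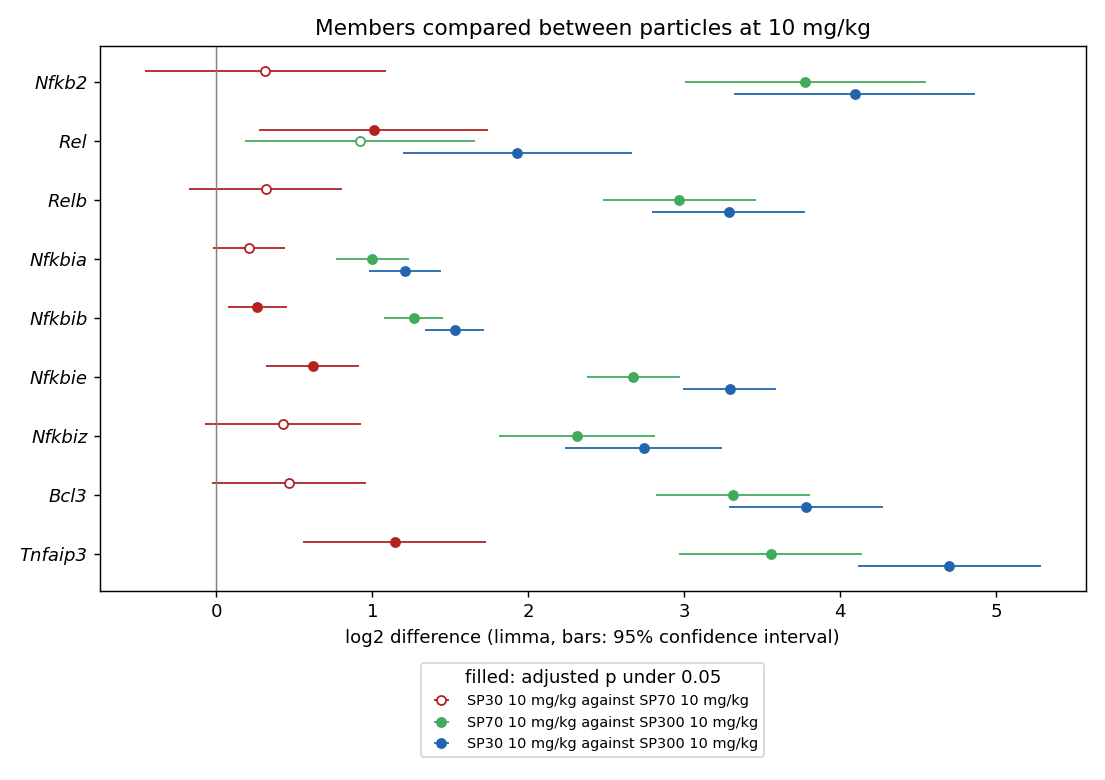
Log2 differences between particle sizes at 10 mg/kg (SP30 against SP70, SP70 against SP300, SP30 against SP300) for the 9 members, with 95% intervals from limma (5 mice a group). The SP30 against SP70 points lie between 0.21 and 1.14, all nearer to 0 than the same members' SP30 against SP300 points.

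At the toxic doses SP30 (10 mg/kg) and SP70 (40 mg/kg) differed in 3 members, each higher after SP30 (3.68% of genes). Nfkbie differed by 1.19 ± 0.15 (adjusted p = 2.08e-06), with no overlap (1 of 9 members, 3.17% of genes), Nfkb2 by 1.84 ± 0.38 (0.00195) and Nfkbib by 0.38 ± 0.09 (0.0103). Nfkbib did not pass without SP70 40 mg/kg mouse 3 (0.31, adjusted p = 0.0564), nor with only the compared groups fitted (0.0659) or the mean of its probe sets (0.23, 0.664). The second brightest probe sets left 1 member, since Nfkb2 and Nfkbib did not pass with them (0.39 and 0.08; adjusted p = 0.628 and 0.964). The 95% intervals of the rest were -0.46 to 1.01 for Rel, 0.07 to 1.05 for Relb (adjusted p = 0.183), -0.10 to 0.37 for Nfkbia, -0.83 to 0.18 for Nfkbiz, -0.02 to 0.97 for Bcl3 and -0.67 to 0.50 for Tnfaip3. Kupffer cell sums were 6149 to 13328 after SP30 and 1719 to 2589 after SP70 at 40 mg/kg, without overlap, and neutrophil sums 49119 to 67211 and 26389 to 64079, with overlap. The part of either was not tested.

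SP300 at its toxic dose of 200 mg/kg was set against the toxic doses of both smaller particles. SP30 at 10 mg/kg against it was higher for all 9 members (11.6% of genes), with 7 free of overlap (8.1%), from 0.66 ± 0.25 for Nfkbiz (adjusted p = 0.0425) to 2.21 ± 0.29 for Tnfaip3 in the 8 other than Nfkb2. Nfkb2, under the filter in all 5 SP300 mice on its brighter probe set, was at least 6.22-fold higher on that probe set. The Nfkbiz call was lost without SP30 mouse 1, 2, 3 or 4 or SP300 mouse 1 or 3 (0.0664 to 0.195), and also without the filter on low values, with arrays centred on their medians and with only the compared groups fitted (0.0582, 0.0518 and 0.0907). The second brightest probe sets of Nfkb2 and Nfkbib did not pass (0.67 and 0.18; adjusted p = 0.153 and 0.813), nor did the mean of the Nfkbib probe sets (0.48, 0.118). SP70 at 40 mg/kg against it was also higher for all 9 (5.04% of genes), with 8 free of overlap (3.64%), from 0.40 ± 0.09 for Nfkbib to 2.29 ± 0.29 for Tnfaip3. Rel did not pass there without SP70 mouse 4 or SP300 mouse 1 (adjusted p = 0.064 and 0.0536). The second brightest probe sets left 6 members, since Nfkb2, Nfkbib and Nfkbie did not pass with them (0.29, 0.10 and 0.43; adjusted p = 0.651, 0.919 and 0.119). Nfkb2, at least 1.65-fold higher on its brighter probe set, also did not pass with only the compared groups fitted (adjusted p = 0.0656), nor did the mean of the Nfkbib probe sets (0.25, 0.53). Summed Kupffer cell markers overlapped at these 2 doses, 1719 to 2589 after SP70 and 1760 to 2054 after SP300, while neutrophil markers summed to 26389 to 64079 and 10429 to 25778.

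Other NF-kB subunits and inhibitors moved less uniformly. Of 17 tested, 9 were higher and 6 lower than control after SP30, 7, 8 and 6 higher and 0, 3 and 4 lower at the SP70 doses, and 4 higher and 1 lower at 200 mg/kg of SP300. Of all tested genes, 18.1% were higher and 31.3% lower after SP30, 12.5%, 18.8% and 15.6% higher and 5.7%, 20.9% and 28.8% lower at the SP70 doses, and 12.6% higher and 18.1% lower at 200 mg/kg of SP300. The lower counts of this list after SP30 and at 20 and 40 mg/kg of SP70 were near those shares of all genes. At 10 mg/kg of SP300, 0 passed in limma (0 at an unadjusted p under 0.05). The median log2 difference of the list was 0.35 after SP30 and 0.16 at 200 mg/kg of SP300, where those of all genes were -0.12 and -0.06. Rela, the p65 subunit, was 2.93 times control after SP30 and 1.99, 1.78 and 2.14 times control at the SP70 doses (log2 1.55 ± 0.09, 0.99 ± 0.09, 0.83 ± 0.09 and 1.09 ± 0.09). Tnip1, a partner of Tnfaip3, was higher by 2.82 ± 0.14, 2.19 ± 0.14, 1.79 ± 0.14 and 2.22 ± 0.14 in the same order, and by 1.29 ± 0.14 at 200 mg/kg of SP300. Zc3h12a, an RNase that degrades inflammatory transcripts and was above the filter in 3 of the 5 controls, was higher by 2.79 ± 0.28 after SP30, by 2.18 ± 0.28, 1.72 ± 0.28 and 2.51 ± 0.28 at the SP70 doses and by 1.40 ± 0.28 at 200 mg/kg of SP300. Of the 6 that were lower after SP30, Itch, a ubiquitin ligase that works with Tnfaip3, was at -0.53 ± 0.10 after SP30, and Commd1, which promotes loss of Rela, was at -0.46 ± 0.12.

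Of 26 kinases and adaptors tested, 17 were higher and 2 lower after SP30, 12, 15 and 12 higher and 0, 1 and 3 lower along the SP70 doses, and 11 higher and 0 lower at 200 mg/kg of SP300, beside the shares of all genes given for the subunits and inhibitors. The list's median was 0.62 after SP30 and 0.12 at 200 mg/kg of SP300. At 10 mg/kg of SP300, 0 passed in limma (5 at an unadjusted p under 0.05). Ikbke, a kinase related to those of the IkB complex, was higher by 4.96 ± 0.18 after SP30, 4.47 ± 0.18, 4.43 ± 0.18 and 4.12 ± 0.18 at the SP70 doses and 4.00 ± 0.18 at 200 mg/kg of SP300. Irak3, an inhibitory adaptor of the Toll-like receptor route, was under the filter in all 5 controls and at least 10.7-, 4.09-, 5.29-, 5.27- and 2.88-fold higher in the same order. Myd88, the adaptor of that route, was higher by 1.73 ± 0.10, 1.23 ± 0.10, 0.98 ± 0.10, 1.15 ± 0.10 and 0.63 ± 0.10. Ikbkb, the kinase that phosphorylates IkB proteins, passed after SP30 (0.32 ± 0.08) and at 20 mg/kg of SP70 (0.20 ± 0.08), and was at 0.16 ± 0.08 and -0.08 ± 0.08 at 10 and 40 mg/kg.

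Of 19 ligands and receptors tested, 10 were higher and 2 lower after SP30, 9, 9 and 10 higher and 0, 2 and 3 lower along the SP70 doses, and 8 higher and 4 lower at 200 mg/kg of SP300 (12.6% and 18.1% of all genes), with medians of 0.67 after SP30 and 0.35 at 200 mg/kg of SP300. The shares of all genes after SP30 and SP70 are those given for the subunits and inhibitors. Tlr2, a receptor for bacterial lipoproteins that was above the filter in 3 of the 5 controls, was higher by 5.61 ± 0.20 after SP30, by 5.27 ± 0.20, 4.31 ± 0.20 and 4.43 ± 0.20 at the SP70 doses and by 2.79 ± 0.20 at 200 mg/kg of SP300. Cd14, a co-receptor for lipopolysaccharide, was higher by 5.66 ± 0.26, 3.90 ± 0.26, 5.34 ± 0.26, 5.41 ± 0.26 and 4.52 ± 0.26 in that order. Il1b, a cytokine that signals to NF-kB, was higher by 3.41 ± 0.18, 2.08 ± 0.18, 1.77 ± 0.18, 2.23 ± 0.18 and 1.21 ± 0.18. At 10 mg/kg of SP300 the receptor Il1r1 alone among them passed in limma, at 1.26 ± 0.24 (adjusted p = 0.00411), where 1.17% of all genes passed in either direction. An unadjusted p under 0.05 was found there for 8 of the 19, and for 1781 of all 12670 genes.

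Most known targets of NF-kB on the list were higher in the groups in which the members were. Of 28 tested, 26 were higher and 1 lower than control after SP30, 24, 23 and 24 higher and 1, 1 and 0 lower along the SP70 doses, 19 higher and 1 lower at 200 mg/kg of SP300, and 2 higher at 10 mg/kg of SP300. Of all tested genes, 18.1% were higher after SP30 and 12.5%, 18.8% and 15.6% at the SP70 doses. At 200 and 10 mg/kg of SP300, 12.6% and 0.923% were higher. The median of the targets was 2.92 after SP30, 2.29, 1.80 and 2.74 along the SP70 doses and 1.22 at 200 mg/kg of SP300. The medians of all genes were -0.12, 0.01, -0.03, -0.09 and -0.06 in the same order. Saa3, an acute phase protein, was higher by 6.25 ± 0.12 after SP30, 5.73 ± 0.12, 6.28 ± 0.12 and 6.21 ± 0.12 along the SP70 doses and 6.04 ± 0.12 at 200 mg/kg of SP300. Cxcl2, a chemokine for neutrophils, was under the filter in all 5 controls and at least 161-, 20.7-, 16.9-, 153- and 12.7-fold higher. Icam1, an adhesion molecule of endothelium, was higher by 4.56 ± 0.20, 3.68 ± 0.20, 2.77 ± 0.20, 4.04 ± 0.20 and 2.08 ± 0.20. The 2 that passed at 10 mg/kg of SP300 were the iron-binding protein Lcn2 (1.46 ± 0.22, adjusted p = 0.000226) and the adhesion molecule Vcam1 (0.90 ± 0.22, 0.0266). Vcam1 was also higher after SP30 and at 10 mg/kg of SP70 (1.30 ± 0.22 and 1.75 ± 0.22) but lower at 200 mg/kg of SP300 (-0.59 ± 0.22), and F3, which starts coagulation, was the target that was lower after SP30 (-0.79 ± 0.25). Between SP70 doses, 11 targets were higher and 0 lower at 40 than at 20 mg/kg in limma (2.79% and 8.69% of genes). At 20 against 10 mg/kg, 1 was higher and 4 lower (4.99% and 12% of genes), the lower count being near the share of all genes.

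Across the 7 group means, each centred on its own average, the genes whose patterns came nearest to each member were found by the root mean square difference on the log2 scale, over 12661 other genes. For Nfkb2 they were Akap12 (0.472), Ltb (0.529) and Ubd (0.56). For Relb they were Mcemp1 (0.192), Birc3 (0.275) and Tnip1 (0.299), and for Rel Irf1 (0.115), Map3k8 (0.16) and D10Wsu102e (0.165). Birc3 is an adaptor and Tnip1 an inhibitor of the same pathway, and Map3k8 a kinase of the Toll-like receptor route. For Nfkbia they were Etv3 (0.0922), Trib1 (0.104) and Rela (0.11), for Nfkbib Plac8 (0.0727), Tmco6 (0.0839) and Abca1 (0.0854) and for Nfkbie Ltb (0.147), Plek (0.189) and Ubd (0.19). For Nfkbiz they were Ccr1 (0.299), Gbp3 (0.303) and Egr1 (0.314), for Bcl3 Stfa2l1 (0.221), Elf3 (0.256) and Egr3 (0.292) and for Tnfaip3 Adamts4 (0.33), Icam1 (0.364) and Mmp8 (0.39). Plac8 is also among the monocyte markers used here and Mmp8, a collagenase of neutrophil granules, among the neutrophil markers. Among the members themselves, Nfkbia and Nfkbib were the closest pair (0.195) and Nfkbia and Tnfaip3 the farthest (1.46). A flat gene can lie near a member of small range by this measure, so the distances of different members are not compared.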

How the data were processed

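Total RNA was labelled with biotin and hybridised to 1 array per mouse, per the labels' protocols. The deposited values are intensity values on a linear scale, made by the authors with MAS5, per the submitters' processing notes, which give no version. Background correction and scaling inside that software affect dim probe sets most. Of 45101 probe sets, 34958 name 1 gene, 932 several and 9160 none in the platform annotation, and 64 are controls. For each gene the brightest single-gene probe set was kept (18194 genes), then genes above 165 on at least 5 of the 35 arrays (12670). Values were turned into log2(value + 12.5), the added value being the 10th percentile, which understates changes of dim genes.

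Means of the 7 groups were fitted over all 35 arrays with limma 3.58.1 in R 4.3.3 (eBayes with trend). P-values are two-sided and were adjusted by the method of Benjamini and Hochberg over all genes of each of 16 comparisons, with a threshold of 0.05. A fold is a ratio of geometric means, with signals under 165 in the lower group set to 165 and the fold then called "at least". Simulated data with known changes were used as a check of the fit.

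The members and lists were chosen with earlier results of these data known. All members were named. From each pathway list up to 4 genes with the smallest adjusted p against control were taken, plus others where the list is described, and for each member the 3 nearest patterns. Alternatives changed the added value, the filter, the scaling, the choice of probe set, a replicate block, the groups fitted and each mouse in turn. Replicates are separate animals, and the number of arrays limits precision. The replicate numbers did not pair the mice: deviations from the group means correlated at -0.103 to 0.112 between same-numbered mice over 105 pairs.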

Additional observations from a re-analysis of the deposited data

Results flagged for a closer look

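In 5 of the 63 combinations of a member and a group, the highest or lowest mouse lay far from the other 4. The gap took more than 0.71 of the group's range on the log2 scale, while the signals printed here are linear. Chance gives about 1 in 20. Nfkbia at 40 mg/kg of SP70 was highest in mouse 4, at 44763 against 31959 to 33986 in the others (gap 0.817 of the range). Nfkbia after SP30 was lowest in mouse 5, at 30739 against 38519 to 41188 (0.771), and so was Tnfaip3, at 3796 against 7772 to 9810.5 (0.755). Nfkbia at 200 mg/kg of SP300 was lowest in mouse 3, at 15630 against 21487 to 24298 (0.721). Nfkbiz in controls was highest in mouse 1, at 1563 against 664 to 793 (0.793), and leaving it out brought Nfkbiz past the threshold at 10 mg/kg of SP300 (1.03, adjusted p = 0.022, against 0.81 and 0.102 with all mice). SP30 mouse 5 was also the lowest of its group for Nfkb2, Rel, Relb, Nfkbiz and Bcl3. In the same way SP70 20 mg/kg mouse 3 was the lowest for Nfkb2, Rel, Relb, Nfkbia, Nfkbiz, Bcl3 and Tnfaip3. SP70 40 mg/kg mouse 4 was the highest for every member but Bcl3.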

How the results depend on the processing

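All calls of members against control at SP30 and at 20 and 40 mg/kg of SP70 kept their direction and side of the threshold under every alternative run, except that Rel could not be tested under a filter at the 75th percentile. Counts of members changed by over 1.5 times in few cases. At 20 against 10 mg/kg of SP70 (5 members) the count was 3 after quantile normalization, 2 with the second brightest probe set and 3 to 5 without 1 mouse, being 3 without mouse 3 or 4 of either dose. For SP30 against SP70 at 10 mg/kg (4 members) it was 1 with the second brightest probe set and 2 to 4 without 1 mouse, and for SP30 against SP70 at 40 mg/kg (3) it was 1 with the second brightest probe set. For SP300 at 10 mg/kg against control it was 0 to 1 without 1 mouse. Counts over all genes moved for SP300 at 10 mg/kg against control (148; 87 with arrays centred on their medians, 45 with only the compared groups, 72 to 164 without 1 mouse), for SP70 at 40 against 20 mg/kg (1455; 852 centred, 913 to 1680 without 1 mouse), for SP70 at 40 against SP300 at 200 mg/kg (1960; 3021 centred) and for SP30 against SP70 at 40 mg/kg (723; 474 with the mean of all probe sets, 415 with the second brightest, 419 with only the compared groups, 426 to 847 without 1 mouse). The share of calls that were higher moved by over 10 points in 8 of 16 comparisons after quantile normalization (by 10.7 to 31.5 points) and in 8 after centring (10.6 to 17.4).

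No member that passed changed sign. Values near 0 that did were, after quantile normalization, Nfkbib at 10 mg/kg of SP300 against control (-0.034) and between SP70 doses (0.031 for 20 against 10, 0.040 for 40 against 20, 0.071 for 40 against 10), Bcl3 for 40 against 10 (0.19), and after centring Nfkbib at 10 mg/kg of SP300 (-0.020). With the mean of all probe sets they were Nfkbib, Nfkbiz and Tnfaip3 for 20 against 10 mg/kg of SP70 (0.12, 0.10 and 0.19) and Nfkbie for 40 against 20 (-0.019). With the second brightest probe set they were Nfkbie and Tnfaip3 at 10 mg/kg of SP300 (-0.044 and -0.19), Nfkbib, Nfkbiz and Tnfaip3 for 20 against 10 (0.26, 0.36 and 0.70), Nfkb2 and Nfkbie for 40 against 20 (0.027 and -0.12) and Nfkbib for 40 against 10 (0.040). Without 1 mouse, the ranges that crossed 0 were, at 10 mg/kg of SP300, Nfkbib (-0.066 to 0.051), Nfkbie (-0.0069 to 0.13) and Rel (-0.084 to 0.34), between SP70 doses Nfkbib (-0.073 to 0.023 for 20 against 10), Nfkbie (-0.015 to 0.14 for 40 against 20), Bcl3 and Nfkbia (-0.11 to 0.093 and -0.017 to 0.16 for 40 against 10), and Tnfaip3 for SP30 against SP70 at 40 mg/kg (-0.19 to 0.15). The cause of these changes was not tested. With the replicate number as a block, 143 of 144 member results kept their call, and Rel at 10 mg/kg of SP70 against control did not (1.03, adjusted p = 0.0529). The numbers do not pair the mice, and 8 of 35 arrays correlated best with their own number. Signals near the filter limit what can be said of Nfkb2 and Rel in controls.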
